A study of Mus musculus with 2 samples.

Results

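In 226 genes of the mouse adrenal gland, at least 2 annotated spliced transcripts each held 20% or more of the gene's full-length reads in both libraries sequenced. Full-length reads are those of transcript models that match an annotated splice chain (Known) or an unannotated but complete one (NIC, from known splice sites, and NNC, with a new splice site). A gene also needed 20 or more such reads in each library. The 226 genes were 7.5% of the 3015 genes with that depth and held 455 qualifying transcripts, out of 19947 Known multi-exon transcripts with a read in the whole data set. Choosing by 1 library alone changed the number: 634 genes met the rule in replicate 1 and 300 in replicate 2, and all 226 are among both. The genes were thus chosen by the full-length shares given below, which are described without a test.

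The RNA came from adrenal glands of females of B6CASTF1/J, the first-generation cross of C57BL/6J and CAST/EiJ, aged 36 days. Both libraries belong to this 1 untreated group and are numbered as biological replicates 1 and 2, so no conditions are compared. Replicate 1 started from 1 µg of RNA. The labels give both a shared and a separate number for the animals, so differences between the libraries may be technical, and the deposited tables do not separate the parental alleles.

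Most mammalian genes can give more than 1 messenger RNA. A transcript can begin at another promoter and so carry another first exon, include or skip an internal (cassette) exon, use a nearby splice site, keep an intron, or end at another last exon. Depending on where the change falls, it alters the protein, the untranslated regions, or whether the RNA is translated at all. A long read that spans the whole transcript shows the choice directly.

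Replicate 1 held 1223776 reads and replicate 2 held 453761, of which 937121 and 313831 were full-length reads of annotated genes. The 226 genes took 57565 (6.14%) and 19512 (6.22%) of these. Full-length reads per gene ranged from 29 to 2842 with a median of 134 in replicate 1, and from 20 to 1542 with a median of 47.5 in replicate 2. The 95% Wilson interval of a leading isoform's share was therefore between 3.65 and 34 percentage points wide in replicate 1 and between 4.84 and 40.1 points wide in replicate 2. All 6 markers of the adrenal cortex and all 5 of the medulla had reads in both libraries, with summed levels of 54462 and 71616 reads per 1000000 reads of annotated genes (CPM) for the cortex and 9944 and 6739 CPM for the medulla. Of the cortex markers only Cyp11a1 was higher by CPM in replicate 2, with 23820 reads in replicate 1 and 17150 in replicate 2. Each other cortex marker was lower, such as Star with 12228 and 3648 reads, so the higher sum rests on Cyp11a1. The 8 adipocyte markers also had reads in both libraries, at 7322 and 10483 CPM summed. Most of that rise came from Fabp4, with 883 and 1208 reads, and Cidea, with 908 and 666. Plin1, Ucp1 and Lep were lower by CPM in replicate 2. The 7 skeletal muscle markers summed to 934 CPM in replicate 1 and 7.24 CPM in replicate 2, where Atp2a1, Tcap, Tnnc2 and Tnnt3 had 0 reads.

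Sequences that separate the isoforms are shown first, read from the GENCODE M21 transcripts on mm10 (GRCm38). The 6 lines below give cassette exons in capitals with 12 bases of the neighbouring exons on each side, 5′ to 3′, since these exons recur throughout the results. Those of Acly, Anxa6, App, Eif4h and Vegfa are wholly coding, and that of Myl6 carries the stop codon of the isoform that includes it. Coordinates are those of the capitals.
Acly-203, chr11:100503160-100503189, minus strand: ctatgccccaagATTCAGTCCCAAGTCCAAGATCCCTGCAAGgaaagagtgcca
Anxa6-202, chr11:54987051-54987068, minus strand: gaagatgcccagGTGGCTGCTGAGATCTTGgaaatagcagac
App-206, chr16:85040251-85040307, minus strand: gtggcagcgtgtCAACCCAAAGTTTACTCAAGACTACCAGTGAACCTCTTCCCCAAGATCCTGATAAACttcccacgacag
Eif4h-205, chr5:134624441-134624500, minus strand: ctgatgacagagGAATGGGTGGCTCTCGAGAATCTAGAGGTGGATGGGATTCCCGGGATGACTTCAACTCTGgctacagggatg
Myl6-206, chr10:128491720-128491764, minus strand: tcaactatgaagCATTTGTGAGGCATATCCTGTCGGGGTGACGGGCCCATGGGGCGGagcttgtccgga
Vegfa-202, chr17:46020991-46021122, minus strand: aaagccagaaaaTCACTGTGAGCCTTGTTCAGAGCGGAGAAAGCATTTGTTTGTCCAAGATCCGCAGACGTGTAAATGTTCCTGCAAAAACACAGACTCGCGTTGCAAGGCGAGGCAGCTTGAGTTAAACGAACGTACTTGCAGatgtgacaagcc

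The mutually exclusive exons of Pkm are shown because the pair has the same length and much of the same sequence. Capitals mark the bases that do not match the other exon in a global alignment.
Pkm-202, chr9:59675029-59675195, plus strand: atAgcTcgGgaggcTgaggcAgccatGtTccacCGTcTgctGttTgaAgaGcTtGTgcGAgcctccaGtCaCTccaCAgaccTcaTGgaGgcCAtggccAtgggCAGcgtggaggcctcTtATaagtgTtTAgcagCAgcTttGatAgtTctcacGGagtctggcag
Pkm-201, chr9:59675568-59675734, plus strand: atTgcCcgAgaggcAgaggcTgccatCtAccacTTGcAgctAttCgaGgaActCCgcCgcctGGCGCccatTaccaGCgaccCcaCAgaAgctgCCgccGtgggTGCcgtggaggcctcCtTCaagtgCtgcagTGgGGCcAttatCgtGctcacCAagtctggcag

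Splice sites only a few bases apart are shown by the bases, in capitals, that the longer isoform adds between 12 bases on each side. The first 4 are coding shifts of the 3′ splice site by 3 bases, Cnbp and Srsf7 are coding shifts of the 5′ splice site, and Ndufb2 and Rps28 are noncoding shifts of the 5′ splice site by 4 bases.
Cfd-201, chr10:79891456-79891458, plus strand: cggctgtatgtgCAGcacagccccgag
Fxyd6-201, chr9:45390634-45390636, plus strand: tcctggcgagtgCAGctgagaaggaga
Sdcbp-201, chr4:6385026-6385028, plus strand: ccagcacaagggCAGttggtagcaaga
Pgam5-202, chr5:110265643-110265645, minus strand: ccagaggctgtgCAGtattatgaagat
Cnbp-208, chr6:87845656-87845676, minus strand: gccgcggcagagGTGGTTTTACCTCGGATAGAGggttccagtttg
Srsf7-201, chr17:80204122-80204130, minus strand: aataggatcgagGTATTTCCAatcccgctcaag
Ndufb2-202, chr6:39598362-39598365, plus strand: ctctctggacgaGTAGgagcaaggtgag
Rps28-205, chr17:33823193-33823196, minus strand: atcttgcagctgGTGGggttctggatat

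In each gene the 2 qualifying transcripts with the largest mean share were compared as the leading pair. First exons separated 46 pairs, 5′ splice sites 46, 3′ splice sites 41, cassette exons 40, retained introns 30, last exons 17 and mutually exclusive exons 4. The pairs of Gnas and Rbm42 differed in a way outside these classes. Each of the 226 pairs differed in 1 stretch of the splice chain, bounded by splice sites that both isoforms share or by a transcript end. Such a stretch can hold more than 1 exon or splice site. Beside them stand 1668 other genes of the same depth with 2 Known spliced isoforms, of which 50 had more than 1 such stretch between their leading isoforms. In these other genes the second isoform needed no minimum share, only a read in either library. The pair together held a median of 88.9% of a gene's full-length reads in replicate 1 and 90.8% in replicate 2. Per gene, the leading transcript had a median of 8 exons in the 226 genes and 7 in the other 1668, and the full-length reads were similar, with medians of 134 and 139 in replicate 1.

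The annotated coding sequence differed in 121 pairs, stayed the same in 82, and in 15 pairs 1 transcript was noncoding. In 4 of the 226 genes a transcript of the pair has an incomplete coding sequence in the annotation. A further 6 pairs joined a coding transcript with one annotated for nonsense-mediated decay, the pathway that removes RNAs with an early stop codon, and 2 pairs were noncoding in both. Different coding sequences made up 53.5% of these pairs and 35.6% of the pairs in the 1668 other genes. Coding with noncoding pairs were 6.64% against 39.3%. First exon pairs were 20.4% against 36.2% and last exon pairs 7.52% against 16.2%, while 3′ splice site pairs were 18.1% against 8.63% and 5′ splice site pairs 20.4% against 9.83%. These shares are descriptions with no test, since the 226 genes were chosen for the balance of their isoforms. Here and below, comparisons with the other genes set balanced pairs beside pairs whose second isoform can be rare.

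**Figure D1:**
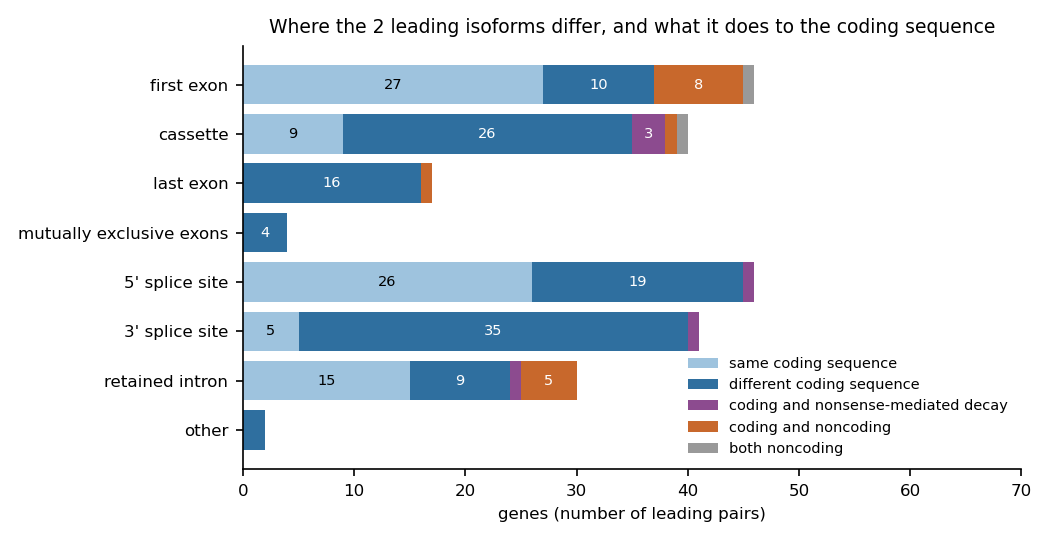
Number of genes (x axis) by the kind of exon difference between the 2 leading isoforms (y axis), coloured by what the annotation gives for their coding sequences. First exon pairs mostly kept the coding sequence (27 of 46), whereas last exon (16 of 17) and 3′ splice site pairs (35 of 41) mostly changed it.

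First exon choice divided evenly into pairs whose first exons lay apart from every exon of the other transcript (23) and pairs where a first exon overlapped an exon of the other (23). The coding sequence was the same in 15 of the 23 separate pairs and in 12 of the 23 overlapping pairs. The starts of separate pairs were 50 to 84250 bases apart, with a median of 596. In all 23 overlapping pairs every splice junction of the downstream transcript was also the last stretch of junctions of the upstream transcript. A read of the upstream transcript that lost its 5′ end has the same junctions as the downstream one. Reads classed as 3′ fragments of an annotated chain were 7.35% of the reads of annotated genes in replicate 1 and 9% in replicate 2. The downstream start had the higher share in replicate 2 in 14 of the 23 overlapping pairs and in 15 of the 23 separate pairs. The part of such fragments in these shares was not tested.

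Atp5g1, which encodes the c subunit of mitochondrial ATP synthase, had separate first exons with starts 51 bases apart and the same coding sequence. Atp5g1-202 held 63.0% of 389 full-length reads in replicate 1 (58.1% to 67.6%) and 61.4% of 166 in replicate 2 (53.9% to 68.5%). Atp5g1-201 held 34.2% and 35.5%. Both libraries gave the same order with intervals that did not overlap between the isoforms. Rnh1, the inhibitor of pancreatic-type ribonucleases, had starts 3631 bases apart, and Rnh1-201 held 57.7% of 641 reads and 58.5% of 118. Fkbp8, an immunophilin of the mitochondrial outer membrane, had starts 99 bases apart, and Fkbp8-201 held 52.9% and 50.5% against 20.7% and 27.4% for Fkbp8-204.

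Cidec, a lipid droplet protein of fat cells, had starts 996 bases apart and a coding sequence of 720 bases in Cidec-202 and 750 in Cidec-203. Cidec-202 held 38.7% of 367 reads in replicate 1 and 48.0% of 150 in replicate 2, and Cidec-203 held 39.0% and 33.3%. Replicate 1 showed no leader and replicate 2 favoured the upstream start, with intervals of 40.2% to 55.9% and 26.3% to 41.2% that overlapped. Summed adipocyte markers were at 7322 and 10483 CPM in these libraries, mostly through Fabp4 and Cidea, while Plin1, Ucp1 and Lep were lower in replicate 2. The part of fat cells in the shares of Cidec, or of the adipocyte genes Cfd and Plin1 below, was not tested.

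RefSeq promoter windows (GRCm38.p6, 250 bases before a start to 50 bases after it) lay within 100 bases of 52 of the transcripts in first exon pairs. In 17 genes both transcripts matched a window of their own, and both Atp5g1 transcripts shared a window, so that 51 windows were matched. The letters TATAAA on either strand were in 1 of the 51 windows, for Maged2, and in 13.6% of the 32851 windows in the table. The 51 windows had a median of 17 CpG dinucleotides, against 7 in the table, and a median GC content of 61.7% against 52.7%. The table is not limited to genes with reads in these libraries, so the differences cannot be read as particular to first exon pairs. Some of the 51 windows also overlap one another. The 250 bases before both Cidec starts are shown with CpG in capitals, 4 upstream of Cidec-202 and 6 upstream of Cidec-203.
Cidec-202, chr6:113435761-113436010, minus strand: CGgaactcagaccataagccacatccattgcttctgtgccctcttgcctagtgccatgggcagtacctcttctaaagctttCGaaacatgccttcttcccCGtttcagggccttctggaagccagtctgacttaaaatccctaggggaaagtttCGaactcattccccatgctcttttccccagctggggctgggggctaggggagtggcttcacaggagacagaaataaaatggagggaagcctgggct
Cidec-203, chr6:113434765-113435014, minus strand: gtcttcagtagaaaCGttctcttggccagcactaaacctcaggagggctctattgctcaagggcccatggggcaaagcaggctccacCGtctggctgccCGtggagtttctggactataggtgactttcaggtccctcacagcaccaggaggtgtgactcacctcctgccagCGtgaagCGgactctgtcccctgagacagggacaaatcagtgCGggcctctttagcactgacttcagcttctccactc

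Among overlapping first exons, Cox4i1 had the most reads. It encodes a subunit of cytochrome c oxidase, and its pair joins the coding Cox4i1-201 with Cox4i1-204, which the annotation classes as a retained intron transcript and which starts 4368 bases downstream. Cox4i1-204 held 44.6% of 2842 reads in replicate 1 (42.8% to 46.4%) and 61.9% of 1542 in replicate 2 (59.4% to 64.3%). The leader changed between the libraries, with intervals that did not overlap. Map1lc3a, an autophagosome protein, also paired a coding with a noncoding transcript. Its noncoding Map1lc3a-203, the downstream start, held 50.5% of 1316 reads and 56.9% of 209. Nme2, a nucleoside diphosphate kinase, and Ywhaq, a 14-3-3 protein, kept the same coding sequence. Their downstream starts held 30.4% and 39.8% of reads for Nme2-202, and 24.9% and 28.8% for Ywhaq-201.

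Cassette exons separated 40 pairs by 41 exons of 18 to 229 bases. The coding sequence changed in 26 of these pairs, stayed the same in 9, and in 3 pairs 1 transcript was annotated for nonsense-mediated decay. Of the 39 pairs with a single cassette exon, 30 (76.9%) had a length that is a multiple of 3, and the median length was 70 bases. In the 1668 other genes this held for 120 of 245 single cassette exons (49.0%), with a median length of 98 bases. Of the 25 wholly coding cassette exons, 21 were multiples of 3, as were 6 of the 10 noncoding ones. The exons of the other genes were not divided in this way. Over all kinds of difference, coding with noncoding pairs were 39.3% there and 6.64% here, so the 2 sets of exons may be unlike.

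Acly, which makes cytosolic acetyl-CoA for the synthesis of lipids and sterols, had the most reads of any cassette pair. Acly-201, without the exon of 30 bases, held 71.3% of 1761 reads in replicate 1 (69.2% to 73.4%) and 69.8% of 597 in replicate 2 (66.1% to 73.4%). Acly-203, with the exon, held 21.4% and 22.8%. The intervals of Acly-201 overlapped between the libraries. Hmgcs1 and Fdps, enzymes of the mevalonate pathway that supplies cholesterol, both had noncoding cassette exons in front of an unchanged coding sequence. Hmgcs1-202, with an exon of 59 bases, held 33.9% of 762 reads and 38.9% of 95. Fdps-203, with an exon of 216 bases, held 21.8% of 770 reads and 24.8% of 129. In both genes the isoform that skips the exon led in both libraries.

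Myl6 is an essential light chain of nonmuscle and smooth muscle myosin. Myl6-206, with the exon of 45 bases, held 52.3% of 673 reads in replicate 1 (48.5% to 56.1%) and 52.8% of 318 in replicate 2 (47.3% to 58.3%), a mean of 52.6% ± 0.373 (SD, n = 2). Myl6-201, without it, held 35.7% and 33%. Both isoforms have 456 coding bases but different ends, because the exon supplies its own stop codon. Eif4h, a cofactor of the translation initiation helicase, had its exon of 60 bases in 40.5% of 619 reads and 48.3% of 118. The skipping isoform Eif4h-201 held 57.7% and 49.2%, so that it led in replicate 1 and was level with the other in replicate 2.

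App and Aplp2 are related precursor proteins of the cell surface. App-206 includes an exon of 57 bases that encodes the part similar to the OX-2 antigen. It held 20.1% of 423 reads and 30% of 60, against 27% and 26.7% for App-202, and the intervals of the isoforms overlapped in both libraries. In Aplp2 the exon of 168 bases encodes the Kunitz protease inhibitor domain. Aplp2-201, with the exon, held 54.7% of 517 reads (50.4% to 59.0%) and 56.7% of 157 (48.9% to 64.2%), against 36.8% and 31.8% for Aplp2-209. Anxa6, a calcium-dependent phospholipid-binding protein, had the shortest cassette, of 18 bases, and Anxa6-202, with it, held 58.0% of 157 reads and 71.8% of 39.

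In Vegfa, the endothelial growth factor, the exon of 132 bases encodes part of the heparin-binding domain. Vegfa-202, with the exon, held 27.9% of 226 reads (22.4% to 34.1%) and 47.0% of 100 (37.5% to 56.7%). Vegfa-201, without it, held 24.3% and 30%. Their shares of the pair were 53.4% and 61.0% for Vegfa-202, so part of the rise between libraries came with more reads on the pair as a whole. Ifi27, an interferon-induced gene, had a coding exon of 135 bases, and Ifi27-205, with it, held 54.0% of 994 reads and 50.3% of 322.

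**Figure D2:**
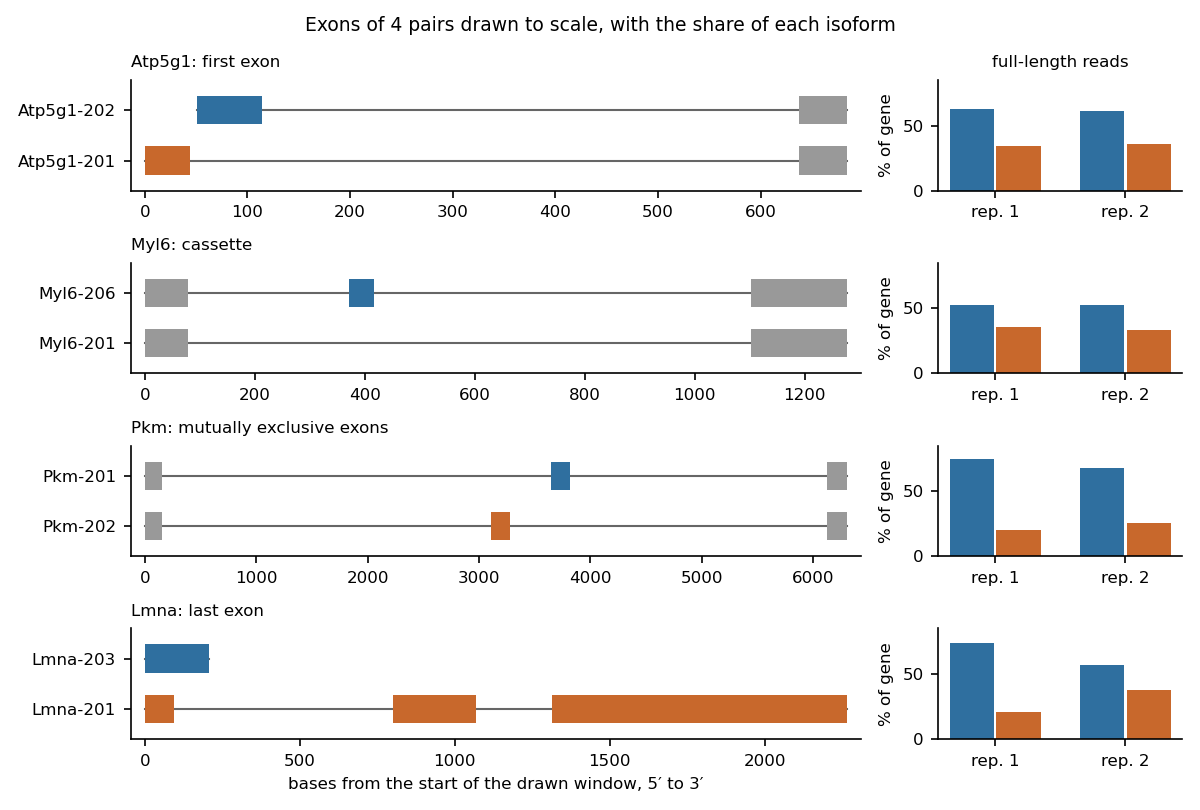
Exons near the difference for Atp5g1, Myl6, Pkm and Lmna, drawn to scale 5′ to 3′ in bases, with exons found in both isoforms in grey and the others in blue (leading isoform) and orange; in Lmna the first drawn exon of Lmna-201 is the shorter form of the last exon of Lmna-203. The bars give each isoform's percent of the gene's full-length reads per replicate, and blue is above orange in all 8 pairs of bars.

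Mutually exclusive exons separated 4 pairs, all with different coding sequences. Within a gene the alternative exons had equal lengths in Pkm (167 bases), Calu (194) and Acp1 (114), and 155 and 152 bases in Plpp1. Identical bases in a global alignment made up 70.1%, 67.5%, 66.7% and 65.2%. Pkm encodes pyruvate kinase, and its upstream exon gives the M1 form that predominates in adult skeletal muscle, while the downstream exon gives M2. Pkm-201, with the downstream exon, held 74.8% of 1471 reads in replicate 1 (72.5% to 76.9%) and 67.6% of 352 in replicate 2 (62.6% to 72.3%). Pkm-202, with the upstream exon, held 20.1% (18.2% to 22.2%) and 25.3% (21% to 30.1%). The M1 form thus had the lower share in replicate 1, the library with skeletal muscle markers at 934 CPM against 7.24 CPM, whose part in the shares was not tested.

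Plpp1, a phosphatase of lipid phosphates, was alike in both libraries, with Plpp1-202 at 58.3% of 530 reads and 62.3% of 138. Acp1, the low molecular weight protein tyrosine phosphatase, changed its leader: Acp1-201 held 67.7% of 93 reads (57.7% to 76.4%) and 46.3% of 41 (32.1% to 61.3%). Calu, a calcium-binding protein of the endoplasmic reticulum, also changed its leader, with Calu-201 at 59.6% of 47 reads and 40.7% of 27. The intervals of the libraries overlapped in both genes.

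Last exon choice separated 17 pairs, 10 with last exons apart from each other and 7 where a last exon overlapped an exon of the other. The coding sequence changed in 16 and stayed the same in 0, and in Pcif1 the leading transcript was noncoding. In the 7 overlapping pairs all junctions of the shorter transcript were also junctions of the longer one. Lmna is such a pair: Lmna-201 encodes lamin A and Lmna-203, which reads on into the intron of lamin A, encodes lamin C. Lamin C held 74.0% of 200 reads in replicate 1 (67.5% to 79.6%) and 57.1% of 77 in replicate 2 (46.0% to 67.6%). Lamin A held 20.5% and 37.7%. Lamin C led in both libraries, and its intervals overlapped by a small margin between them.

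Lamp2, a lysosomal membrane protein, has alternative last exons that encode different membrane anchors and tails. Lamp2-201 held 74.6% of 315 reads and 66.3% of 92, and Lamp2-202 held 22.5% and 30.4%. Both have 1248 coding bases and differ in sequence. Dnajb6, a cochaperone of Hsp70, had a shorter product of 729 coding bases in Dnajb6-203 at 67.8% of 171 reads and 69.1% of 55, and a longer one of 1098 in Dnajb6-201 at 20.5% and 21.8%. Polr1d, which gives a subunit of RNA polymerases I and III, had Polr1d-201 at 50.8% of 187 reads and 61.3% of 62. Ppm1b, a protein phosphatase, had Ppm1b-202 at 55.6% of 207 reads and 52.5% of 40. Cox16, an assembly factor of cytochrome c oxidase, was balanced, with Cox16-202 at 46.4% of 110 reads and 44.1% of 34 and Cox16-201 at 45.5% and 44.1%. Tcf25-201 led in replicate 1 with 36.6% of 183 reads, but not in replicate 2, where it held 25% of 48 against 31.2% for Tcf25-202. Fgfr1op2-203 led in both with 42.5% and 38.2%.

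Shifts of the 3′ splice site separated 41 pairs and were mostly small. The shift was 3 bases in 22 (53.7%), against 36 of 144 such pairs in the other genes (25%), and a multiple of 3 in 34 against 78. Annotated sequences were read for 40 of the 41, and in all 40 the extra bases ended in AG, the letters at which the intron of the shorter isoform ends. Here and in the classes below, these are bases of the reference transcripts, not of the sequenced RNA. They describe the annotated splice sites only. Of the 21 extra triplets read, 15 were CAG, 4 TAG, 1 AAG and 1 GAG. The coding sequence changed in 35 of the 41 pairs.

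Cfd, or adipsin, a complement protease secreted by fat cells, was the most read of these pairs. Cfd-202, without the triplet, held 50% of 1688 reads in replicate 1 (47.6% to 52.4%) and 51.2% of 705 in replicate 2 (47.5% to 54.9%). Cfd-201, with it, held 46.9% and 45.8%. The isoforms differed by little in both libraries. Fxyd6, a regulator of the sodium pump, was at 56% of 427 reads and 56.1% of 139 for the isoform without the triplet. Sdcbp, the scaffold protein syntenin, favoured the triplet, with Sdcbp-201 at 66.8% of 410 reads and 75.4% of 118. Pgam5, a mitochondrial phosphatase, changed its leader, with the triplet in 56.3% of 103 reads and 30.8% of 26. H2-K1, a class I histocompatibility heavy chain, had a shift of 27 bases, and H2-K1-205 held 44.5% of 371 reads and 50% of 72. The sources used here do not say how reads of related histocompatibility genes were assigned, so the values of H2-K1 are uncertain.

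**Figure D3:**
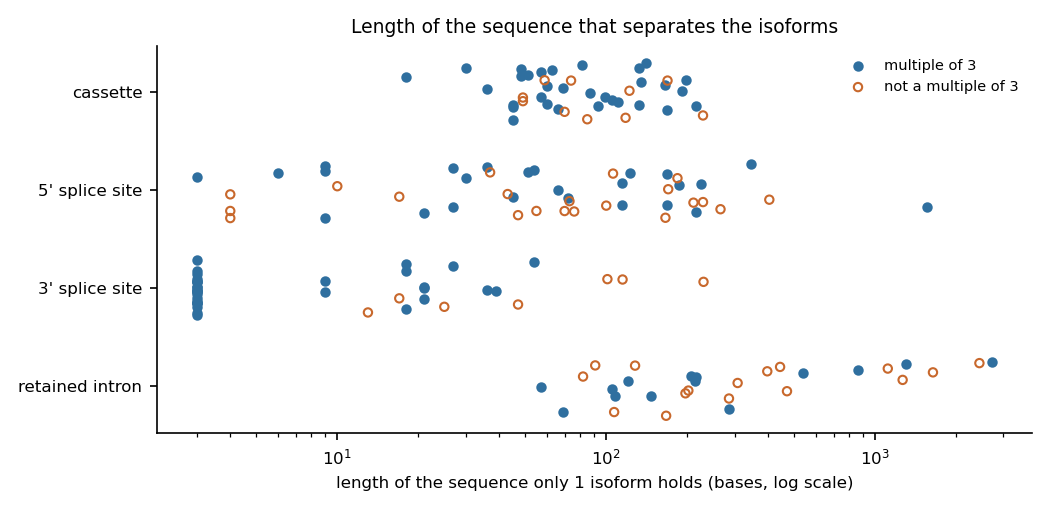
Length in bases (x axis, log scale) of each sequence held by 1 isoform of a pair, by kind of difference (y axis; points are spread vertically for clarity), with multiples of 3 filled. The 3′ splice site row has 22 points at 3 bases, cassette exons run from 18 to 229 bases, and retained introns reach 2724 bases.

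Shifts of the 5′ splice site separated 46 pairs, with lengths of 3 to 1554 bases and a median of 68. Of these, 30 lay in the first exon, 28 were wholly noncoding, and the coding sequence stayed the same in 26 pairs. The shift was a multiple of 3 in 25 of the 46, and in 14 of the 16 that were wholly coding. In the other genes 53 of 164 shifts were multiples of 3. All 44 that were read began with GT, the letters at which the intron of the shorter isoform begins.

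Hadhb, the beta subunit of the mitochondrial trifunctional protein of fatty acid oxidation, had a noncoding shift of 43 bases. Hadhb-201 held 51.5% of 1396 reads and 48.5% of 398, and Hadhb-203 held 43.9% and 45.7%. Atp5g3, which like Atp5g1 encodes the c subunit of ATP synthase, had a noncoding shift of 10 bases, with Atp5g3-201 at 68.6% of 688 reads and 67.4% of 282. Rps28, a protein of the small ribosomal subunit, had a shift of 4 bases, with Rps28-205 at 69.4% of 819 reads (66.1% to 72.4%) and 72.4% of 344 (67.4% to 76.8%). Rpl38, of the large subunit, had a shift of 17 bases, with Rpl38-204 at 60.8% of 732 reads and 55.0% of 398. Ribosomal protein genes have near-identical copies in the genome, so these values, and those of Rpl30 below, are uncertain. Cnbp, a zinc finger protein that binds nucleic acids, had a coding shift of 21 bases, with Cnbp-208 at 44.3% of 914 reads and 39.9% of 311.

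Retained introns separated 30 pairs. The 28 that were read ran from 57 to 2724 bases, with a median of 214.5, and all began with GT and ended with AG. The coding sequence was the same in 15 pairs and differed in 9, and in 5 pairs 1 transcript was noncoding. Every junction of the retaining isoform is also in the spliced one. In 17 of the 30 pairs, Hspa5 and Rpl30 among them, they are its last stretch of junctions. A read of the spliced isoform that lost its 5′ end then has the same junctions as the retaining one. With the 23 overlapping first exon pairs, 40 pairs have this form. Their shorter chain held a median of 39.3% of the pair in replicate 1 and 39.6% in replicate 2, and was higher in replicate 2 in 21. The part of fragments in these shares was not tested. Hspa5, the chaperone BiP of the endoplasmic reticulum, kept a noncoding intron of 82 bases in 25.7% of 1040 reads in replicate 1 (23.1% to 28.4%) and 23.8% of 282 in replicate 2 (19.2% to 29.1%). Chpt1, a choline phosphotransferase, kept an intron of 2441 bases in 25.2% of reads in both libraries. Scg2, secretogranin of the chromaffin granules of the medulla, had an intron of 120 coding bases. Scg2-201, which keeps it, held 49.6% of 709 reads and 42.8% of 348. Ensa-201, which keeps an intron of 2724 bases, held 75.7% of 70 reads and 72.5% of 40.

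Gnas encodes the alpha subunit of the stimulatory G protein, which couples the ACTH receptor to cyclic AMP in the cortex. Its pair differs by 42 coding bases, 1185 in Gnas-208 and 1143 in Gnas-207. Gnas-208 held 54.4% of 2105 reads in replicate 1 (52.3% to 56.6%) and 58.2% of 519 in replicate 2 (53.9% to 62.4%). Gnas-207 held 26.8% and 21.4%. The longer form led in both libraries. Rbm42, an RNA-binding protein, had Rbm42-201 at 55.2% of 143 reads and 59.1% of 66.

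Gene lists were set beside the rule. Of 46 genes listed for well-known isoform choices and deep enough to qualify, 12 were among the 226 (26.1%), against 7.5% of all genes of that depth. They are Aplp2, App, Calu, Eif4h, Gnas, Hnrnpc, Lmna, Myl6, Pkm, Rbm39, Srsf7 and Vegfa. Of 25 splicing factors 6 qualified: Hnrnpab, Hnrnpc, Hnrnph2, Hnrnpr, Rbm39 and Srsf7. Of 72 genes of oxidative phosphorylation 4 qualified (5.56%), namely Atp5g1, Atp5g3, Cox4i1 and Ndufb2, and of 11 medulla genes 1, Scg2. Of 23 steroidogenesis genes 0 qualified, in a list that summed to 82761 and 102921 CPM. The shares of oxidative phosphorylation and medulla genes were near the 7.5% of all genes of that depth. In a list of 23 genes, 0 is also near that share and is not read as particular to steroidogenesis. The lists were drawn up with results of these data known, and no test was made.

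The splicing factors mostly differed in coding sequence. Hnrnpab-201, which skips a coding exon of 141 bases in a packaging protein of nuclear RNA, held 55.5% of 254 reads and 63.3% of 49. Hnrnpr-204 skips an exon of 169 bases and held 46.8% of 94 reads and 39.3% of 28. Hnrnpc-205, with 21 more coding bases, held 38.0% of 150 reads and 25.6% of 39. Rbm39-203, with 18 more, held 29.0% of 241 reads and 40.3% of 77. Srsf7-201, with 9 more, held 32.5% of 120 reads and 26.7% of 45. Hnrnph2 differed by a noncoding exon of 45 bases, and Hnrnph2-203, without it, held 66.1% of 127 reads and 53.3% of 45. Ndufb2, a subunit of complex I, had Ndufb2-205 at 53.1% of 350 reads and 58.6% of 174.

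In 3 genes as many as 3 Known transcripts reached the 20% share. Dnajb12, a cochaperone, divided 40 and 39 reads into 50% and 43.6% for Dnajb12-204, 27.5% and 25.6% for Dnajb12-205, and 20.0% and 25.6% for Dnajb12-201. BC031181 had 37.9% and 31.5%, 28.9% and 33.7%, and 22.7% and 22.8% for its 3 transcripts, of 211 and 92 reads. In Fgfr1op2 the third transcript, Fgfr1op2-204, held 25.1% and 25.5%. At the edge of the rule were isoforms at 20.0% in the library where their share was lower, namely Glyr1-201, Ensa-202 and Hyou1-201. Just outside were Hnrnpd-201 and Hmgn3-202 at 19.8% and Prkcsh-202 at 19.6%. The count of 4 reads of 20 for Glyr1-201 in replicate 2 shows how few reads decide such cases.

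Between the libraries the same isoform led in 178 of the 226 genes. The rule asks for 20% or more in both libraries, which limits how far a share can differ between them. The leading isoform's share of the pair differed by a median of 5.73 points, by over 10 points in 63 genes and by over 20 points in 13. The median difference was 4.75 points for cassette exons, 4.77 for retained introns, 5.87 for first exons, 6.25 for 5′ splice sites, 6.42 for 3′ splice sites, 8.26 for last exons and 13.1 for the 4 pairs of mutually exclusive exons. Of these 4, Acp1 and Calu had few reads in replicate 2. The classes were not matched for depth, so the order of the medians is a description only. The longer transcript of a pair had the higher share in replicate 1 in 105 genes and in replicate 2 in 120.

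The largest difference was in Rex1bd, an overlapping first exon pair in which the coding Rex1bd-201 held 64.2% of 212 reads (57.5% to 70.3%) and 39.4% of 137 (31.6% to 47.8%). Pgam5 followed. Rpl30-202, of the large ribosomal subunit, held 62.9% of 62 reads and 33.3% of 27, and the isoform that keeps an intron of 107 bases held 32.3% and 48.1%. Pcif1, a methyltransferase that acts next to the cap of mRNA, had its noncoding Pcif1-204 at 61.0% of 59 reads and 37.1% of 35. Plin1, the perilipin that coats lipid droplets of fat cells, had Plin1-206 at 46.6% of 238 reads (40.4% to 53.0%) and 30.6% of 62 (20.6% to 43.0%). Rsrp1-204, which keeps an intron of 1302 bases, held 74.6% of 882 reads (71.6% to 77.4%) and 51.8% of 218 (45.2% to 58.4%). Except for Pgam5, each of these is a pair in which all junctions of 1 isoform lie in the other, as in 60 of the 226 pairs. In Pcif1 and Rsrp1 those junctions are not the last stretch of the other isoform. This was seen after the genes were ranked and was not tested.

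**Figure D4:**
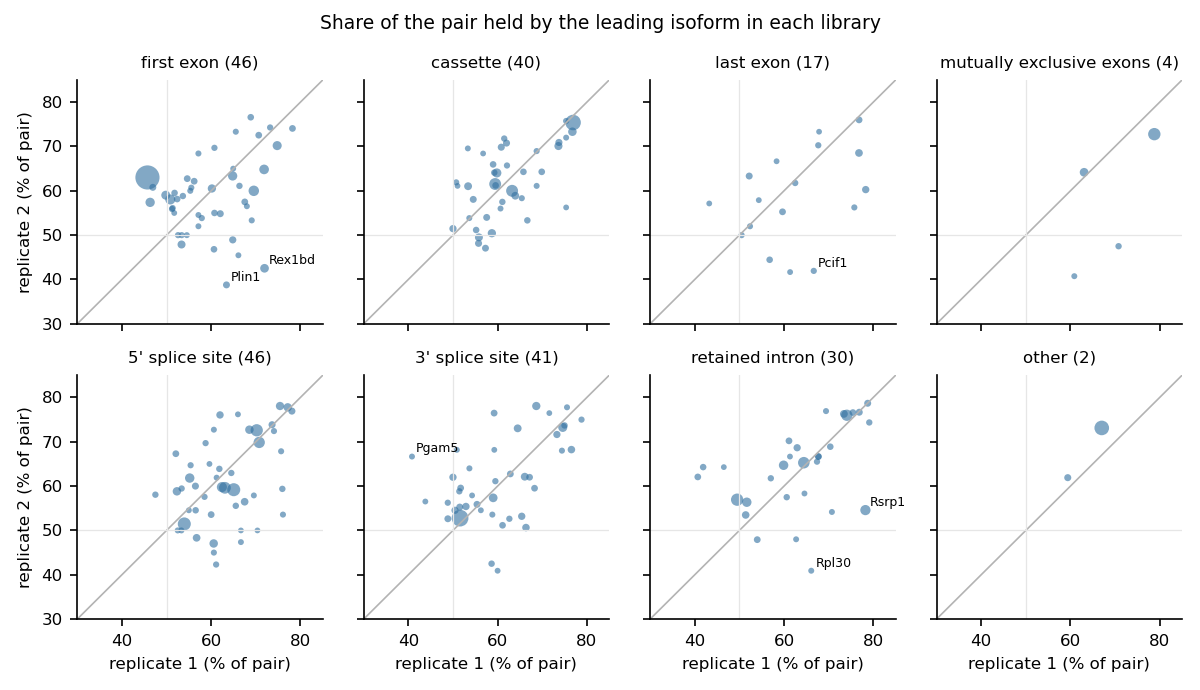
Share of the pair held by the leading isoform in replicate 1 (x axis, percent) and replicate 2 (y axis, percent), 1 point per gene with its area rising with the full-length reads in replicate 2, and 1 panel per kind of difference with its number of genes. Most points lie near the diagonal of equal shares, and the 6 genes with the largest differences are named.

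Incomplete reads were the one measure near this choice that did not enter the rule. They belong to models with a consecutive part of an annotated splice chain (class ISM). A read was counted for an isoform if it had a junction that the other isoform of the pair lacks, and none particular to that other. This was possible in 166 of the 226 genes, since 60 pairs have no junction particular to each side: the 23 overlapping first exons, the 7 overlapping last exons and the 30 retained introns. With at least 10 such reads in each library, the libraries were compared by Fisher's exact test (two-sided) in 53 genes with 2 Known spliced isoforms, 10 of them among the 226. After Benjamini-Hochberg adjustment over the 53, 1 gene passed 0.05 (1.89%), and 0 of the 10 did. By the same Fisher's exact test, 0 of the 10 and 3 of the 53 had an unadjusted p under 0.05, and the lowest of the 10 was 0.286, for Pkm. Reads per gene were few, so a p above the threshold does not show that the choice was alike. A junction particular within the pair can also lie in further isoforms of the gene. An isoform with a cassette exon also has more such junctions than the one that skips it. The share in incomplete reads is thus not the same quantity as the full-length share of the pair.

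Incomplete and full-length reads named the same leading isoform in both libraries in 7 of the 10 genes. Acly-201 had 132 incomplete reads and Acly-203 had 61 in replicate 1, a share of 68.4% (61.5% to 74.5%), against 76.9% of the full-length reads of the pair, and 71.4% against 75.4% in replicate 2. Pkm-201 held 68.3% (59.6% to 76.0%) against 78.8%, and 78.8% against 72.8%. Sqstm1, the autophagy receptor p62, had Sqstm1-202 at 77.2% against 75.4% and at 83.3% against 78.1%. Myl6-206 held 51.2% against 59.5% and 62.0% against 61.5%. In Ndufb2 the values were 66.7% against 55.2% and 69.2% against 61.8%.

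Gnas stood furthest apart. Gnas-208 held 94.9% of the incomplete reads of the pair in replicate 1 (87.7% to 98.0%) and 97.1% in replicate 2 (85.1% to 99.5%), against 67.0% and 73.1% of the full-length reads. The intervals exclude the full-length shares in both libraries, but the part of further Gnas isoforms in the incomplete reads was not tested. Anxa6-202 was at 84.6% against 61.5% and at 80% against 71.8%. Aplp2-201 was at 57.7% against 59.8%, and at 40% of 10 reads against 64.0%. The leader differed between the kinds of read for Aplp2 in replicate 2, and for App and H2-K1 in replicate 1, where App-202 held 47.1% against 57.3% and H2-K1-205 45.2% against 50.5%.

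**Figure D5:**
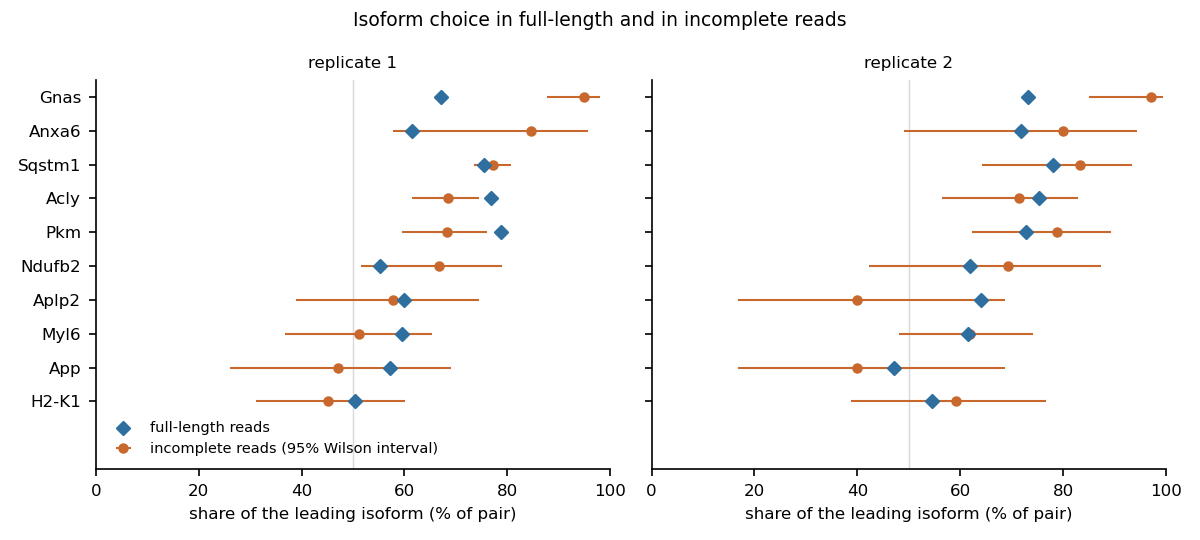
Share of the pair held by the leading isoform (x axis, percent) in full-length reads (blue diamonds) and incomplete reads (orange circles with 95% Wilson intervals) for the 10 genes with at least 10 informative incomplete reads in each replicate (y axis), 1 panel per replicate. In Gnas the diamonds at 67.0% and 73.1% lie left of both intervals.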

How the data were processed

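Long-read RNA-seq of 2 adrenal gland libraries was analysed from the whole-number read counts per transcript model that the authors deposited, 1 table per library, without normalization. Per the labels' protocols and accompanying notes, reads went through the ENCODE long-read pipeline for mouse, were aligned to mm10 and compared with GENCODE M21, and the deposited annotations name TALON. The sources used here do not name the aligner, versions or filters. Exon numbers and transcript lengths are other values of the deposited tables.

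Spike-in genes and loci outside the annotation were left out. Exons of all 19947 Known multi-exon transcripts equal those of GENCODE M21, which supplied coding sequences, transcript types and sequences. Pairs were classed from splice sites in Python 3.11.15 with pandas 2.3.3 and numpy 2.4.6. Wilson intervals came from statsmodels 0.14.6 and Fisher's exact tests from scipy 1.17.1, and both cover counting error only, since PCR copies are not independent molecules. The scripts for classes and tests were tested on simulated data. CPM is per 1000000 reads of annotated genes.

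The members and lists were chosen with earlier results of these data known. Genes named are those with the most full-length reads of each class (8 for first, cassette and last exons, 4 otherwise), members of the lists, the 6 largest differences between libraries, genes with more than 2 qualifying transcripts, cassettes of at most 27 bases, those nearest the 20% share, and the 4 largest differences between incomplete and full-length reads. Sqstm1 and Maged2 were named after their values were seen. Separate and overlapping exons, coding effects, nested junctions, extra bases, exon identity, promoter matches within 100 bases and the comparison of classes with other genes were added after the data were seen. Sequences on chromosome 18 were not used here. Alternatives varied the read minimum, the share, the denominator, the libraries and the depth.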

Additional observations from a re-analysis of the deposited data

How the results depend on the processing

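The depth of replicate 2 limits the description: a gene with 20 reads has an interval for a share of up to 40.1 points, and no replicate-based test can be made in 1 group of 2 libraries. No paired analysis was possible because the design holds 1 group. Leaving out a library could not be applied to the test of incomplete reads, which compares the libraries. With a minimum of 50 reads, 109 genes and 220 transcripts met the rule, with 22 first exon, 20 cassette (15 single exons a multiple of 3), 5 last exon, 2 mutually exclusive, 20 5′ splice site, 22 3′ splice site and 16 retained intron pairs. With a minimum of 1 read there were 565 genes and 1136 transcripts, with 111, 118 (81), 55, 11, 103, 104 and 58 pairs in that order and 5 outside the classes. At a share of 30% there were 109 genes and 218 transcripts, with 25, 21 (16), 6, 2, 19, 23 and 12 pairs and 1 outside. At 15% the first exon pairs were 72 of 319 genes. With shares of all reads of a gene, 165 genes met the rule, 151 of them among the 226, and 1 pair was outside the classes. Using 1 library gave 300 to 634 genes, 611 to 1290 transcripts, 71 to 125 first exon, 52 to 131 cassette (37 to 86), 23 to 69 last exon, 5 to 10 mutually exclusive, 55 to 128 5′ splice site, 51 to 98 3′ splice site and 40 to 67 retained intron pairs, and 3 to 6 outside. These counts follow from which genes the rule admits. With replicate 1 thinned to the full-length reads of replicate 2, 199 genes met the rule, 190 of them shared. The leading share moved by more than 1 SD between libraries in 138 of the 226 genes with all reads as the denominator, in 102 with Known multi-exon reads alone and in 56 with thinning. In incomplete reads the test passed 2 of 195 genes with NIC and NNC reads added and 0 of 41 after thinning, and 0 members in each setting. At an unadjusted p under 0.05 there were 3 of 34 members and 8 of the 195 genes with NIC and NNC reads added, and 1 of 9 members and 2 of the 41 genes after thinning.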

Other observations

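Some genes outside the rule for named genes also had balanced known isoforms. They were chosen after their values were seen. Hsd11b1, which regenerates active glucocorticoid from its inactive keto form, had first exons 21446 bases apart and an unchanged coding sequence. Hsd11b1-205 held 46.6% of 118 full-length reads in replicate 1 (37.9% to 55.6%) and 45.5% of 33 in replicate 2 (29.8% to 62.0%), and Hsd11b1-201 held 40.7% and 45.5%. The isoforms were level in both libraries at this depth. All junctions of Hsd11b1-201 are also junctions of Hsd11b1-205. Puf60, a splicing factor, differed by a coding exon of 51 bases, and Puf60-202, with it, held 22.5% of 258 reads and 26.4% of 110. Palm, a membrane-anchored protein, had a coding exon of 132 bases in 71.2% of 73 reads and 73.5% of 34.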
